A study of Homo sapiens with 12 samples.

Results

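Cholesterol and long-chain fatty acids are built from acetyl-CoA by enzymes whose genes are switched on together by the SREBP transcription factors. Transcripts of 30 such genes were followed in human embryoid bodies in which METTL14 had been depleted. They were taken as a listed set of synthesis enzymes and SREBP regulators and matched to Ensembl identifiers by symbol, 1 identifier each. All 30 were among the 24898 genes that passed the filter on low counts, out of 65969 identifiers in the deposited table. The set holds 18 sterol enzymes, 5 SREBP regulators and sterol carriers (SREBF1, SREBF2, SCAP, INSIG1 and STARD4) and 7 genes of the fatty acid arm (ACLY, ACACA, FASN, ELOVL6, SCD, FADS1 and FADS2). The list goes by what the genes encode, and it was drawn up with earlier results of these data known.

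Embryoid bodies are aggregates in which pluripotent stem cells differentiate in suspension, here from the established human embryonic stem cell lines H1 and MEL1. Both lines were transduced, per the labels, with a lentiviral SMARTvector hairpin that doxycycline induces and were selected with puromycin. The hairpin was KD1, KD2 or KD3, which target METTL14, or the control SCR. METTL14 is a subunit of the enzyme complex that writes N6-methyladenosine on RNA. All 12 libraries, controls included, came from aggregates seeded at 500 cells per microwell and cultured for 10 days in medium with 2 µg/ml doxycycline. H1 gave 2 libraries each of SCR, KD1, KD2 and KD3, and MEL1 gave 1 SCR, 2 KD1 and 1 KD2 library. The labels do not say whether libraries of a group came from separate cultures or whether a line was 1 clone, so p-values measure only the spread between these libraries. Whether fewer cells of a type or less RNA per cell lies behind a difference cannot be told apart in bulk RNA.

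As background, 2 acetyl-CoA molecules are first joined by ACAT2 in the cytosol, HMGCS1 adds another acetyl unit, and MVK, PMVK, MVD, IDI1 and FDPS turn mevalonate into farnesyl diphosphate. FDFT1, SQLE and LSS make and close the first sterol ring system, and CYP51A1, TM7SF2, MSMO1, NSDHL, HSD17B7, EBP, SC5D and DHCR7 convert it to cholesterol. When membrane cholesterol is low, SCAP escorts the SREBP precursors out of the endoplasmic reticulum to be cut and released as transcription factors; when it is high, INSIG1 holds SCAP back. SREBF2 encodes the form best known for sterol genes, SREBF1 the forms best known for fatty acid genes, and INSIG1 and STARD4 are themselves SREBP targets.

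SREBPs bind promoters of these genes next to NF-Y, a factor that recognises the CCAAT box. RefSeq windows of the 250 bases before a transcription start (GRCh38.p14) matched 26 of the 30 genes with 35 starts; ACAT2, FDFT1, SQLE and FASN had no window. The CCAAT box, searched on both strands, was in 23 of these 35 windows (65.7%), against 32% of all 35116 RefSeq windows of that length. For the sterol enzymes it was 15 of 20 windows (75%), and for the fatty acid arm 5 of 10 (50%). An SRE-like motif, TCACNCCAC on either strand, was in 1 of 35 windows (2.86%), that of SREBF2, where it starts 133 bases before the transcription start, against 0.883% of all windows. The Sp1 box GGGCGG was in 88.6% of the windows against 42.6% of all, and the E-box CACGTG in 11.4% against 6.34%. These matches describe the letters only; no binding was measured, and a window without a match says nothing about a factor.

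The upstream sequences of 8 chosen genes are shown so that their CCAAT boxes can be seen beside the levels. Each is cut before the first exon of a protein-coding gene in GENCODE release 29 and runs 5′ to 3′ on the gene's strand. Capitals mark CCAAT boxes (CCAAT, or ATTGG where the box is on the other strand) and, in SREBF2, the SRE-like motif that precedes its CCAAT box. IDI1, FDPS, NSDHL and MVD are sterol enzymes, STARD4, INSIG1 and SREBF2 belong to the regulators and carriers, and SCD is the fatty acid desaturase. In these stretches 16 CCAAT matches were found, at least 1 in each of the 8 genes, and 2 of the 4 in NSDHL overlap each other. The 8 do not stand for the set: a CCAAT box was in a window of 19 of the 26 genes. Among genes called against SCR in MEL1 and not shown, SCAP and PMVK had 0 matches and TM7SF2 and LSS had 1 each.
IDI1, chr10:1049171-1049369, minus strand: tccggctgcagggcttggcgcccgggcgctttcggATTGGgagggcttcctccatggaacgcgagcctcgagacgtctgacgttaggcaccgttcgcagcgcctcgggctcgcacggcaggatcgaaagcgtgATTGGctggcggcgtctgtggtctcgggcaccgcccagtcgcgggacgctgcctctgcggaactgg
FDPS, chr1:155308616-155308747, plus strand: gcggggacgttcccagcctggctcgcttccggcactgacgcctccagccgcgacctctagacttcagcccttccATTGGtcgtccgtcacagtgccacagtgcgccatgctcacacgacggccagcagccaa
NSDHL, chrX:152830813-152830966, plus strand: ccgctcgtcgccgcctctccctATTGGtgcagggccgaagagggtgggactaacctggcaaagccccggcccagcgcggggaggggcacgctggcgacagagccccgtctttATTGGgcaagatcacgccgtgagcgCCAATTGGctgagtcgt
MVD, chr16:88663162-88663341, minus strand: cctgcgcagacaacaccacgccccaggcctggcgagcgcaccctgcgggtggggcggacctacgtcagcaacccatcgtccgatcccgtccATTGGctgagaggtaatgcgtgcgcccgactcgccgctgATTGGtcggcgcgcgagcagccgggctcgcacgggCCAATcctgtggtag
STARD4, chr5:111512591-111512785, minus strand: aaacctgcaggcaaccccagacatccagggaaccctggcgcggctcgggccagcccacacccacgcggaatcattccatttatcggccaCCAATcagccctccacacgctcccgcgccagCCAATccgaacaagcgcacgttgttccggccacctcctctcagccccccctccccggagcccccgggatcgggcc
INSIG1, chr7:155297628-155297775, plus strand: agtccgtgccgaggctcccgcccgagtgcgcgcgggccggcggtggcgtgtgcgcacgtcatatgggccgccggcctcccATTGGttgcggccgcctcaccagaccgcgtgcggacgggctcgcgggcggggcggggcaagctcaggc
SREBF2, chr22:41832855-41833078, plus strand: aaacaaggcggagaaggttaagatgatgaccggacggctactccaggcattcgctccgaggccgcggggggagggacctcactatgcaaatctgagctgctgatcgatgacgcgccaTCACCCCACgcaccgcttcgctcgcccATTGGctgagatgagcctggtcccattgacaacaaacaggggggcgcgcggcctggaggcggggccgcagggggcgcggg
SCD, chr10:100346983-100347123, plus strand: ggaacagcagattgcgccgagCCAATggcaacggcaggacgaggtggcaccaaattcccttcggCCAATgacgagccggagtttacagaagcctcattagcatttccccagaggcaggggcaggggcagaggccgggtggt

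The libraries held 36609628 to 43508287 estimated counts, except the MEL1 SCR library with 15963241. Levels are given as CPM, which are counts divided by the TMM-scaled library size. METTL14 itself was at 29.8 and 43.8 CPM in H1 SCR and at 8.89 to 17.7 CPM in the 6 H1 knockdown libraries, and at 49.9 CPM in MEL1 SCR and 5.94 to 8.95 CPM in the 3 MEL1 knockdown libraries, so no knockdown library reached its control. Per library, levels ran with transcript GC content to different degrees. Across 10407 genes, which are not independent replicates, Spearman's rho was taken between a gene's GC content and its deviation from its mean over the libraries of the same line. It ranged from -0.636 in MEL1 SCR to 0.612 in the second H1 KD1 library, and it does not compare the lines. It was 0.251 and -0.488 in the H1 SCR libraries. Results were therefore also computed after removal of the GC content and length trend of each library. Neural progenitor markers summed to 535 to 790 CPM in H1 and 26.5 to 33.3 CPM in MEL1, and pluripotency markers to 257 to 436 CPM in H1 and 826 to 2160 CPM in MEL1; hepatic and endoderm markers summed to at most 13.9 CPM, with SOX17 and FOXA2 under 0.1 CPM on average. In the H1 average described next, 3 of 6 pluripotency markers were called lower, and 3 of 6 neural progenitor markers were called higher and 1 lower. Among neuron markers and among neural crest and mesenchyme markers 1 of 6 each was called lower. Of all genes 4.93% were called lower and 2.23% higher. The part of the markers in the results was not tested.

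Over both lines, 9 knockdown against 3 SCR libraries, none of the 30 genes was called, where a call is an adjusted p under 0.05 in edgeR's quasi-likelihood test with Benjamini-Hochberg adjustment over all genes tested (background: 0.213% of all genes called). An unadjusted p under 0.05 was reached by 6, of which SCAP and STARD4 were higher and ACAT2, IDI1, FDPS and ELOVL6 lower; this is 6 of 30, where 15.7% of all genes had such a p. ACAT2 came nearest to the threshold, with -0.79 (SE 0.18, adjusted p 0.0769) on the log2 scale. With the GC and length trend removed there was again no call (background 0.269%). SCAP (0.11) and IDI1 (-0.36) then had an unadjusted p of 0.18 and 0.0603 (edgeR). ACLY (-0.25), FASN (-0.31) and FADS2 (-0.29) newly had one under 0.05, at 0.0121, 0.0241 and 0.00386, all lower. Sterol enzymes below 0 went from 10 to 15 of 18, with a median of -0.07 as fitted and -0.16 after removal. Set against the SCR mean of the same line, STARD4 and SCAP were above it in 9 of 9 knockdown libraries, and ELOVL6 and FADS1 were below it in 9 of 9. These levels are without removal of that trend. Of all genes, 5.98% and 6.35% were above or below in this way. DESeq2 called 1 of the 30 genes over both lines (ACAT2, lower), where it called 5% of all genes. A model of the 7 group means, whose spread holds no difference between the hairpins of a line, called 5, where it called 10.8% of all genes.

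In H1, where each hairpin had 2 libraries, the average of the 3 hairpins against SCR gave calls for 4 sterol enzymes, all lower: ACAT2, which joins the first acetyl-CoA units; IDI1, the isomerase that makes the reactive isoprene unit; FDPS, which makes farnesyl diphosphate; and NSDHL, which removes a methyl group late in the pathway. STARD4, a soluble protein that carries cholesterol between membranes, was called higher. These are 5 of 30 genes, 4 lower and 1 higher, where 7.16% of all genes were called, 4.93% lower and 2.23% higher. Of the 18 sterol enzymes 17 had a log2 fold change below 0, with a median of -0.25, beside a median of 0.01 over all genes tested; FDFT1 was the exception. The fatty acid arm had 6 of 7 below 0, a median of -0.15 and no call, while 3 of its 7 had an unadjusted p under 0.05 (23.2% of all genes).

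**Figure D1:**
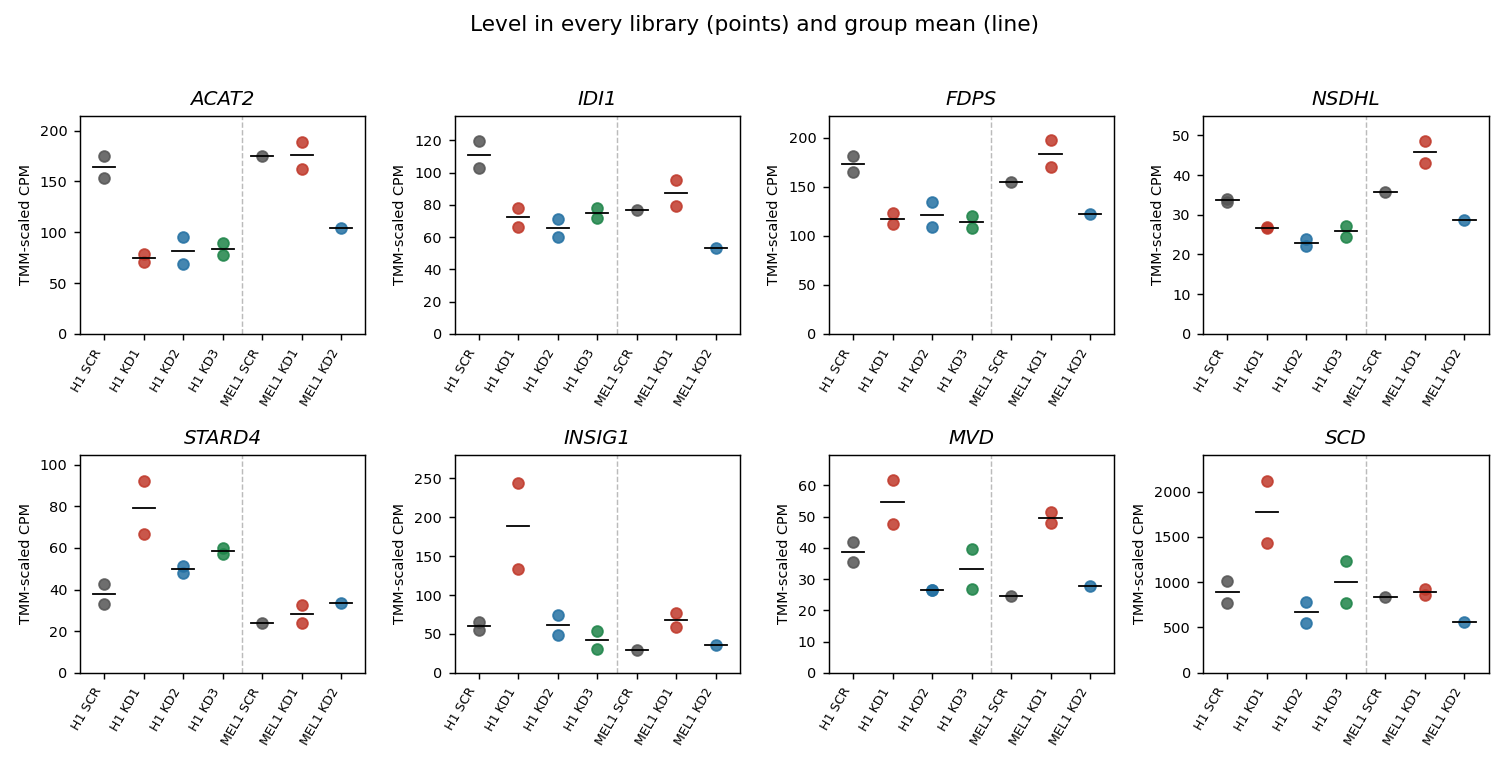
Levels in TMM-scaled CPM (linear axes from 0) of 8 of the genes in each of the 12 libraries, grouped by line and hairpin; points are libraries and lines are group means. In the upper row all 6 H1 knockdown libraries lie below both H1 SCR libraries, while in the lower row INSIG1, MVD and SCD are high in H1 KD1 and STARD4 is above SCR with every H1 hairpin.

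ACAT2 (ENSG00000120437, chromosome 6 at 159760328 to 159779055, plus strand, GENCODE release 29 on GRCh38) was at 154 and 175 CPM in H1 SCR. It was at 78.4 and 70.8 CPM with KD1, 95.4 and 68.4 CPM with KD2 and 89.4 and 77.1 CPM with KD3. Every knockdown library thus held less than either control, and the hairpins overlapped each other. The means were 164 ± 15.1 CPM (SD, n = 2) and 79.9 ± 10.5 CPM (SD, n = 6), and in the average ACAT2 changed by -1.04 (SE 0.12, adjusted p 0.00226) on the log2 scale in edgeR. Each hairpin was called by itself, with log2 fold changes of -1.14 (SE 0.16, adjusted p 0.00429) for KD1, -1.0 (SE 0.16, adjusted p 0.0156) for KD2 and -0.98 (SE 0.16, adjusted p 0.0127) for KD3 (edgeR); the 3 comparisons share the H1 SCR libraries. The call of the average held in all 19 other settings computed, with log2 fold changes from -1.13 to -0.94 and an adjusted p of at most 0.035. For KD2 and KD3 alone it was lost without the second SCR library (adjusted p 0.0891 and 0.0631, edgeR) and without the second library of the hairpin (0.124 and 0.119).

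The end of ACAT2 overlaps TCP1, which encodes a chaperonin subunit on the opposite strand, over 558 bases, and the strand setting of the counting is not given in the sources used here. TCP1 was at 252.7 and 258 CPM in H1 SCR and 168 to 222 CPM in the H1 knockdown libraries, changing by -0.42 (SE 0.10, adjusted p 0.0289, edgeR) on the log2 scale. Whether counts of one gene entered the other was not tested.

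IDI1 (ENSG00000067064, chromosome 10 at 1039152 to 1049170, minus strand) was at 103 and 119.7 CPM in H1 SCR, and at 78.4 and 66 CPM with KD1, 71.4 and 59.8 CPM with KD2 and 77.8 and 71.7 CPM with KD3. FDPS (ENSG00000160752, chromosome 1 at 155308748 to 155320666, plus strand) was at 166 and 182 CPM in H1 SCR, and at 123 and 112 CPM with KD1, 134 and 109 CPM with KD2 and 120.3 and 108 CPM with KD3. For both genes the highest knockdown library was below the lowest control. Their log2 fold changes in the average were -0.65 (SE 0.11, adjusted p 0.0107) for IDI1 and -0.56 (SE 0.11, adjusted p 0.0141) for FDPS in edgeR. Both calls were lost only without the second H1 SCR library (adjusted p 0.129 and 0.139), among 19 settings. By hairpin, IDI1 was called with KD1 and KD2 and FDPS with KD1 and KD3 (edgeR); these calls held in 14 and 15 of 18 other settings for IDI1 and in 15 and 12 for FDPS, and none held without the second SCR library. The remaining hairpin stood at -0.57 (SE 0.14, adjusted p 0.0587) for IDI1 and -0.52 (SE 0.13, adjusted p 0.0871) for FDPS.

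NSDHL (ENSG00000147383, chromosome X at 152830967 to 152869729, plus strand) was at 33.3 and 33.9 CPM in H1 SCR, and at 26.6 and 26.9 CPM with KD1, 23.9 and 22.1 CPM with KD2 and 27.2 and 24.5 CPM with KD3. The controls nearly coincided and all 6 knockdown libraries were below them, for a log2 change of -0.42 (SE 0.10, adjusted p 0.0302) in edgeR. The call held in 13 of 19 other settings, with the losses all from leaving out 1 library (adjusted p up to 0.187). As fitted, no single hairpin passed the threshold for NSDHL.

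STARD4 (ENSG00000164211, chromosome 5 at 111496033 to 111512590, minus strand) went the other way, from 33.2 and 42.7 CPM in H1 SCR to 91.9 and 66.8 CPM with KD1, 48.1 and 51.4 CPM with KD2 and 57 and 60 CPM with KD3. All 6 knockdown libraries were above both controls and the KD1 libraries were the highest. The log2 fold change was 0.69 (SE 0.16, adjusted p 0.0286) for the average and 1.06 (SE 0.19, adjusted p 0.00853) for KD1 (edgeR), while KD2 and KD3 did not pass the threshold by themselves. The call of the average held in 14 of 19 other settings; it was lost without either SCR library (adjusted p 0.149 and 0.101, edgeR), the first KD1 library (0.0534), the second KD2 library (0.063) or the second KD3 library (0.0557).

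The count of 5 in the H1 average depended on single libraries: without the second H1 SCR library it was 1 (ACAT2) and without the first it was 3, and it was 3 without the second KD2 or the second KD3 library. Calls over all genes moved with it, to 0.496% and 3.68% without the second and the first SCR library, 3.7% without the second KD2 library and 4.49% without the second KD3 library. The knockdown libraries did not overlap the controls in 9 genes on the low side (ACAT2, PMVK, IDI1, FDPS, TM7SF2, NSDHL, ACLY, FADS1 and FADS2) and in STARD4 on the high side; this was so for 11.7% and 8.61% of all genes. PMVK, the kinase after MVK, was at 26.9 and 26 CPM in H1 SCR and 21.6 to 24.6 CPM with the hairpins. The gap was small, and its log2 fold change of -0.18 (SE 0.10, adjusted p 0.3) was not called by edgeR. Once the library trend on GC and length was taken out, 8 genes passed in the H1 average (background 11.7%): the same 5, and LSS (-0.38, adjusted p 0.0148), TM7SF2 (-0.39, adjusted p 0.0351) and FADS2 (-0.32, adjusted p 0.023), all 3 lower.

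**Figure D2:**
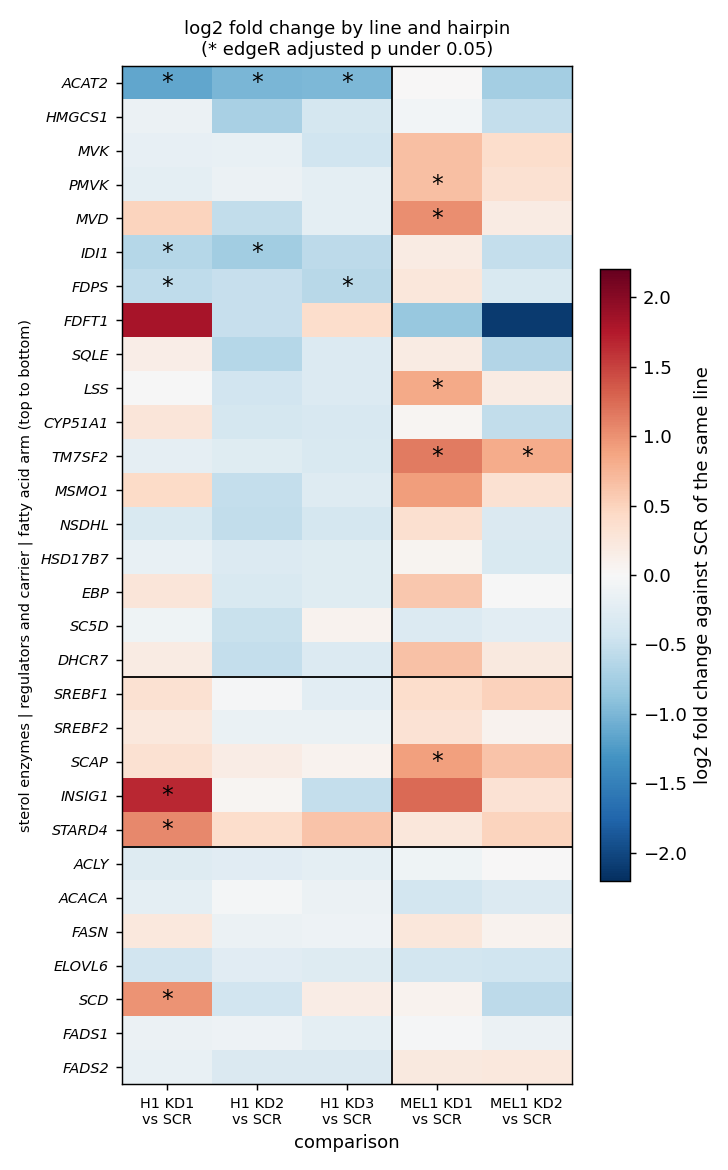
Heat map of log2 fold changes against SCR of the same line for the 30 genes (rows, by arm) and the 5 hairpin groups (columns); blue is lower, red is higher, and asterisks mark an edgeR adjusted p under 0.05. ACAT2, IDI1 and FDPS are blue in all 3 H1 columns, the sterol enzymes are blue throughout in H1 KD2, and INSIG1 and FDFT1 are deep red in H1 KD1.

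By hairpin, the calls against SCR in H1 were not the same, and differences between the hairpins themselves are tested further below. With KD1 6 of the 30 genes were called (background 11.1%), 3 lower (ACAT2, IDI1 and FDPS, where 6.83% of all genes were called lower) and 3 higher (INSIG1, STARD4 and SCD, where 4.25% were called higher). With KD2, 2 were called, ACAT2 and IDI1, both lower (background 1.54%, lower 0.851%), and all 18 sterol enzymes had a log2 fold change below 0, with a median of -0.51 (all genes 0.01). With KD3, 2 were called, ACAT2 and FDPS, both lower (background 2.98%, lower 1.79%), and 16 of 18 sterol enzymes were below 0, with a median of -0.30 (all genes 0.02). For KD1 the sterol median was -0.11, with 11 of 18 below 0 (all genes 0.00), and it changed sign, to 0.02 with the GC and length trend removed and to 0.07 without the second KD1 library, each with 8 of 18 below 0. The KD3 median was -0.48 without the first KD3 library and -0.15 without the second. The KD1 count was 1 without the first KD1 library, 3 without the second and 2 without the second SCR library, when 0.832%, 1.76% and 1.58% of all genes were called. With KD2 and KD3 there was no call without the second SCR library (0.387% and 0.911% of all genes) or without the second library of the hairpin (0.258% and 0.433%). With the trend removed KD2 had 6 calls, all lower (ACAT2, MVD, IDI1, FDPS, LSS and NSDHL), where 3.67% of all genes were called. KD3 then had 3, all lower (ACAT2, IDI1 and FDPS, background 7.13%), and KD1 had 7 (background 13.6%). Those of KD1 were ACAT2, PMVK, FDPS, TM7SF2 and FADS2, lower, and INSIG1 and STARD4, higher. IDI1 and SCD were no longer called with KD1 (adjusted p 0.0515 and 0.123, edgeR).

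Markers of cell types also moved with the hairpin. Pluripotency markers summed to 274 and 257 CPM with KD1, 375 and 286 CPM with KD2, 428 and 436 CPM with KD3, and 368 and 383 CPM in SCR. The KD1 libraries were the lowest, and 4 of the 6 markers were called lower with KD1 against SCR (edgeR), where 6.83% of all genes were. With KD3, though its sums were the highest, 1 of the 6 was called lower (1.79% of all genes). Between the hairpins 3 of 6 pluripotency, 2 of 6 neural progenitor, 2 of 6 neuron and 1 of 6 neural crest and mesenchyme markers were called. No mesoderm or endoderm marker was, and 3.54% of all genes were. Neural progenitor markers summed to 535 to 542 CPM with KD1, 601 to 714 CPM with KD2, 669 to 790 CPM with KD3 and 536 to 569 CPM in SCR, and neuron markers to 266 to 271, 245 to 261, 318 to 324 and 330 to 341 CPM in the same order. Their part in the differences between hairpins was not tested.

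INSIG1, the anchor that keeps SCAP in the endoplasmic reticulum, was at 65.4 and 54.9 CPM in H1 SCR, 244 and 133 CPM with KD1, 49 and 74.9 CPM with KD2 and 53.6 and 30.5 CPM with KD3. Both KD1 libraries were above every other H1 library. SCD, which puts the first double bond into saturated fatty acids, was at 1013 and 774 CPM in SCR, 2112 and 1429 CPM with KD1, 549 and 783 CPM with KD2 and 1232 and 775 CPM with KD3. MVD, which makes isopentenyl diphosphate, was at 41.9 and 35.6 CPM in SCR, 61.7 and 47.6 CPM with KD1, 26.5 and 26.5 CPM with KD2 and 39.8 and 26.8 CPM with KD3. For SCD and MVD, too, both KD1 libraries were above all other H1 libraries, and both KD2 libraries of MVD were below SCR. A test of any difference between the 3 hairpins called these 3 genes of the 30 (background 3.54%), with edgeR adjusted p of 0.0262 for MVD, 0.0403 for INSIG1 and 0.0493 for SCD; 15 of the 30 had an unadjusted p under 0.05, as did 20% of all genes.

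Between pairs of hairpins, MVD was lower with KD2 than with KD1 by a log2 of -1.04 (SE 0.19, adjusted p 0.0337), and INSIG1 lower with KD3 than with KD1 by -2.17 (SE 0.39, adjusted p 0.026) (edgeR; 0.851% and 4.63% of all genes were called in these comparisons, 0.141% and 2.01% lower). Against SCR, INSIG1 was called higher with KD1 at 1.65 (SE 0.38, adjusted p 0.0339), and SCD at 0.99 (SE 0.27, adjusted p 0.0499). All 3 differences between hairpins were lost without the first KD1 library (adjusted p 0.218 for MVD, 0.169 for INSIG1 and 0.265 for SCD), and those of INSIG1 and SCD with the GC and length trend removed (0.0507 and 0.0871). Across 18 other settings the difference between hairpins held in 14 for MVD and in 10 each for INSIG1 and SCD, and the KD1 calls against SCR held in 13 for INSIG1 and 11 for SCD, neither without the first KD1 library (adjusted p 0.145 and 0.264). With that trend removed 4 of the 30 genes were called between hairpins (background 5.5%): MVD (0.0272), and, newly, STARD4 (0.0097), SQLE (0.0318) and CYP51A1 (0.0351).

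The 2 KD1 libraries in H1 stood apart from each other in these genes. The first was above the second in 14 of 18 sterol enzymes, with a median log2 difference of 0.38; the median absolute difference between them over all genes of at least 10 CPM was 0.12. FDFT1, which joins 2 farnesyl diphosphates into squalene, was the most variable, at 101 and 43.7 CPM in the KD1 libraries and 21.4 and 19.7 CPM in SCR, 14 and 15 CPM with KD2 and 37.3 and 16.6 CPM with KD3. Its log2 fold change with KD1 of 1.82 (SE 0.55, adjusted p 0.0874) did not pass the edgeR threshold. Summed over the 18 sterol enzymes, the libraries stood at 1597 and 1699 CPM in SCR, 1797 and 1335 CPM with KD1, 1166 and 1037 CPM with KD2, and 1390 and 1127 CPM with KD3. The KD2 and KD3 sums were thus all below both controls, and the KD1 sums fell on either side of them.

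As fitted, the remaining sterol enzymes had no call in H1 for the average or for any hairpin. With the GC and length trend removed LSS, TM7SF2, PMVK and MVD had calls there, as given above. HMGCS1, which condenses acetyl-CoA with acetoacetyl-CoA, was at 312 and 372 CPM in SCR and between 190 and 385 CPM with the hairpins, with the KD1 libraries at both sides of the controls; its log2 fold change was -0.41 (SE 0.16, adjusted p 0.154) (edgeR). SQLE, which oxidises squalene, was at 144 and 142 CPM in SCR and 87.8 to 187 CPM with the hairpins, and MSMO1, a sterol demethylating oxidase, at 108 CPM in both SCR libraries and 70.8 to 179.8 CPM with the hairpins. For both, the highest library was the first KD1 library and the lowest a KD2 library. DHCR7, which carries out the last reduction to cholesterol, was at 92.8 and 83.7 CPM in SCR and 55.3 to 114 CPM with the hairpins. LSS was at 103 and 102 CPM in SCR and 70.5 to 108 CPM with the hairpins, CYP51A1, which removes the first methyl group of the ring system, at 73.4 and 72.1 and 49.7 to 105 CPM, and EBP, a sterol isomerase, at 58.4 and 54.5 and 40.3 to 76.8 CPM. In these 4 genes the hairpin libraries reached above and below the controls. MVK was at 20.1 and 16.1 CPM in SCR and 12.3 to 19.3 CPM with the hairpins, and HSD17B7 at 17.2 and 18.8 and 12.3 to 18.6 CPM. MVK, LSS, CYP51A1, TM7SF2, HSD17B7, EBP, SC5D, PMVK, HMGCS1, SQLE, MSMO1, DHCR7, MVD and FDFT1, the 14 sterol enzymes without a call in the average, had log2 fold changes between -0.41 (HMGCS1) and 0.57 (FDFT1) there.

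Among the regulators, the transcription factor genes themselves were not called in H1. SREBF2 was at 364 and 309 CPM in SCR and 273 to 411 CPM with the hairpins, and SREBF1 at 50.6 and 40 CPM in SCR and 34.4 to 57.5 CPM with the hairpins. In each, the knockdown libraries lay on both sides of the controls, and the log2 fold changes of the average were -0.02 (SE 0.11, adjusted p 0.938) and 0.02 (SE 0.12, adjusted p 0.945) (edgeR). SCAP was at 114 and 99.8 CPM in SCR and 109.8 to 146 CPM with the hairpins, for 0.19 (SE 0.10, adjusted p 0.283). RNA levels of these factors say nothing of how much of the protein was cut and active.

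In the fatty acid arm, ACLY, which makes cytosolic acetyl-CoA from citrate, was at 402 and 384 CPM in H1 SCR and 302 to 363 CPM with the hairpins, and FADS2, a desaturase of polyunsaturated fatty acids, at 395 and 367 CPM and 282 to 348 CPM. FADS1, its partner desaturase, was at 258 and 253 CPM in SCR and 215 to 242 CPM with the hairpins. These groups did not overlap, yet the differences were small, at log2 fold changes of -0.25 (SE 0.10, adjusted p 0.158) for ACLY, -0.26 (SE 0.09, adjusted p 0.114) for FADS2 and -0.15 (SE 0.08, adjusted p 0.288) for FADS1 in edgeR. FASN, the fatty acid synthase, was at 475 and 381 CPM in SCR and 343 to 545 CPM with the hairpins, and ACACA, which makes malonyl-CoA, at 161 and 170.1 CPM and 136 to 166 CPM. ELOVL6, an elongase of saturated fatty acids, was at 69 and 97.9 CPM in SCR and 57.2 to 78 CPM with the hairpins. FASN, ACACA and ELOVL6 overlapped their controls. As fitted, no fatty acid gene except SCD with KD1 was called in H1. With the GC and length trend removed FADS2 was called lower in the average and with KD1, and SCD was not called.

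In MEL1 the 30 genes were compared with a single SCR library, assumed in the fit to vary like the other groups, so a difference of the MEL1 knockdown libraries cannot be told apart from that library. ACAT2, called in H1, was at 175 CPM in MEL1 SCR, 162 and 189 CPM with KD1 and 104 CPM with KD2. The KD1 libraries thus lay on either side of the control and the KD2 library below it, with log2 fold changes of 0.01 (SE 0.20, adjusted p 1) and -0.75 (SE 0.23, adjusted p 0.0929) (edgeR). IDI1 was at 77 CPM in SCR, 79.4 and 95.1 CPM with KD1 and 53.4 CPM with KD2, FDPS at 155 CPM in SCR, 170.2 and 198 CPM with KD1 and 123 CPM with KD2, and NSDHL at 35.7 CPM in SCR, 43 and 48.6 CPM with KD1 and 28.7 CPM with KD2. In these 3 genes both KD1 libraries were above SCR and the KD2 library below it.

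For the average of KD1 and KD2 in MEL1, 2 genes were called, both higher (background 4.45%, higher 2.93%). They were TM7SF2, a sterol reductase, and SCAP. TM7SF2 was at 25.8 CPM in SCR, 51.5 and 62.3 CPM with KD1 and 45.3 CPM with KD2, a log2 change of 0.98 (SE 0.17, adjusted p 0.0181) in edgeR. SCAP was at 61.9 CPM in SCR, 108 and 124 CPM with KD1 and 95.7 CPM with KD2, a log2 change of 0.77 (SE 0.15, adjusted p 0.0262). In both genes the single control was the lowest of the 4 MEL1 libraries. With the GC and length trend removed they were at 0.30 (adjusted p 0.371) and 0.18 (adjusted p 0.459), and neither was called. TM7SF2 also shares 16 bases with VPS51 on the same strand, which changed by 0.84 (adjusted p 0.0252) on the log2 scale as fitted and 0.10 with the trend removed.

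By hairpin, MEL1 KD1 had 5 calls, all higher (background 8.39%, higher 5.66%): PMVK at 0.67, MVD at 1.02, LSS at 0.84, TM7SF2 at 1.14 and SCAP at 0.91 on the log2 scale. MEL1 KD2 had 1, TM7SF2 at 0.81 (background 3.88%, higher 2.57%). PMVK was at 16.2 CPM in SCR, 25.4 and 26.2 CPM with KD1 and 20.4 CPM with KD2, MVD at 24.5 CPM in SCR, 47.8 and 51.6 CPM with KD1 and 27.8 CPM with KD2, and LSS, which closes the sterol rings, at 67.2 CPM in SCR, 124 and 117 CPM with KD1 and 76.2 CPM with KD2. The KD1 libraries were the highest for each, with KD2 nearer to the control. With the GC and length trend removed none of the 5 KD1 calls was left (background 4.8%), with log2 fold changes of 0.08 for PMVK, 0.22 for MVD, 0.39 for LSS, 0.32 for TM7SF2 and 0.19 for SCAP and an edgeR adjusted p of at least 0.115. For KD2 TM7SF2 then stood at 0.27 (adjusted p 0.476), and ACAT2 was called lower at -0.87 (adjusted p 0.0472), the 1 call of the 30 (background 5.18%). Without the second MEL1 KD1 library 2 of the KD1 calls were left, LSS and TM7SF2, when 1.71% of all genes were called. The KD2 call of TM7SF2 held in 6 of 15 other settings and was lost without any 1 of the 6 H1 knockdown libraries, which share the estimate of the spread (adjusted p 0.0581 to 0.0711, edgeR). Split at a transcript GC content of 55%, a value chosen after the data were seen, the 12 genes at or above it had a median log2 fold change of 0.47 in MEL1, with 11 above 0, and the 18 below it had -0.20, with 5 above 0. After removal of the trend the medians were -0.03 and -0.17, with 4 genes above 0 in each. Removal subtracts whatever in a library runs with GC content. It therefore changes a contrast of genes split by GC content whatever the cause of that contrast. What sets the MEL1 differences was not tested.

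**Figure D3:**
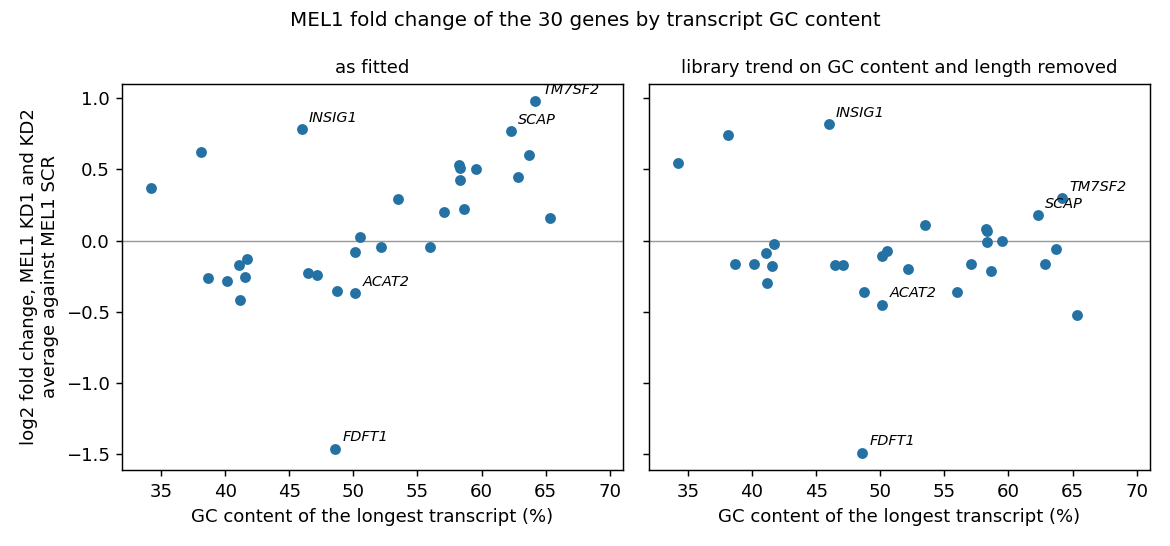
MEL1 log2 fold change (average of KD1 and KD2 against the 1 SCR library) of the 30 genes against the GC content of the longest transcript in percent, as fitted (left) and after removal of the library trend (right); points are genes. On the left the 12 genes with at least 55% GC lie mostly above 0 (11 of 12) and on the right 4 of these 12 do.

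The knockdown effect over KD1 and KD2 was itself compared between the lines. TM7SF2 was called, the MEL1 effect exceeding that of H1 by 1.21 (SE 0.20, adjusted p 0.0334) on the log2 scale in edgeR, 1 of 30 genes (background 0.598%, higher 0.454%). H1 SCR held 52 and 50.2 CPM and the H1 knockdown libraries 39.1 to 47.4 CPM, so the direction was opposite in the lines. The call held in 8 of 16 other settings, and with the GC and length trend removed the difference was 0.74 (adjusted p 0.103). Of the 18 sterol enzymes, 16 had a higher effect in MEL1, with a median of 0.51 beside 0.11 over all genes; with the trend removed this was 15 of 18 and 0.25. For ACAT2 the difference of 0.70 (SE 0.24, adjusted p 0.17) did not pass the threshold, so the H1 fall of ACAT2 was not shown to differ from MEL1.

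Levels were also compared between the lines. Over SCR, KD1 and KD2 weighted equally, 16 of 30 genes were called, 6 higher and 10 lower in MEL1, where 49.1% of all genes were called, 23% higher and 26.2% lower. The share is near the background and is no result about these genes. SC5D, the sterol desaturase, was at 129 to 159 CPM in the 4 MEL1 libraries and 55.6 to 92.4 CPM in the 8 H1 libraries, a log2 difference of 1.02 (SE 0.10, adjusted p 1.05e-05). ACLY was at 561 to 641 CPM in MEL1 and 302 to 402 CPM in H1, a log2 difference of 0.85 (SE 0.08, adjusted p 7.04e-06). These were the genes of the 30 in which every MEL1 library was above every H1 library (12.3% of all genes). ELOVL6, ACAT2, ACACA and NSDHL were also called higher in MEL1, by 0.39 to 0.58 on the log2 scale.

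Lower in MEL1 were 4 of the 5 regulators and carriers: INSIG1 at -1.10 (SE 0.26, adjusted p 0.00964), STARD4 at -0.91 (SE 0.13, adjusted p 0.000168), SREBF2 at -0.53 (SE 0.09, adjusted p 0.000459) and SCAP at -0.44 (SE 0.08, adjusted p 0.00109) on the log2 scale (edgeR). SREBF2 ranged from 217 to 274 CPM in MEL1 and from 273 to 411 CPM in H1, so they overlapped by 1 library of each line. Both desaturases of polyunsaturated fatty acids were lower as well, FADS1 at 159 to 174 CPM in MEL1 and 215 to 258 CPM in H1, and FADS2 at 229 to 269.8 CPM in MEL1 and 282 to 395 CPM in H1. They were the genes of the 30 in which every MEL1 library was below every H1 library (13% of all genes). MSMO1, SQLE, CYP51A1 and PMVK were called lower by 0.26 to 0.46 on the log2 scale. The calls of MSMO1, CYP51A1 and PMVK each held in 13 of 16 other settings. With the GC and length trend removed, PMVK (log2 -0.12, adjusted p 0.217) and MSMO1 (-0.50, adjusted p 0.0578) were no longer called (edgeR). SREBF1 (0.36, adjusted p 0.00148) and FASN (0.55, adjusted p 0.00112) were then called higher and IDI1 lower (-0.25, adjusted p 0.0251). In that setting 51.5% of all genes were called. The neural and pluripotency marker sums given above differ between the lines in the same libraries, and their part in these differences was not tested.

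**Figure D4:**
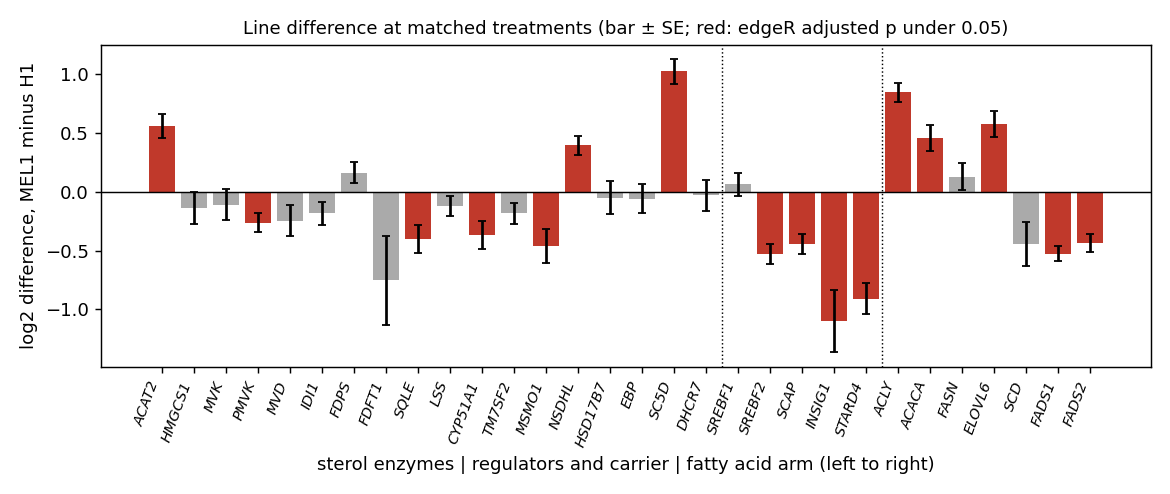
Log2 difference in level between MEL1 and H1 at matched treatments for the 30 genes, as bars with standard errors, with red bars for an edgeR adjusted p under 0.05. SC5D (1.02) and ACLY (0.85) reach highest, and INSIG1 (-1.10) and STARD4 (-0.91) are the lowest of the called genes.

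A further 26 genes of these pathways, among them the second INSIG gene, sterol storage and export genes, liver X receptors, acetyl-CoA and NADPH suppliers and fatty acid elongation enzymes, had no call over both lines and 5 calls in the H1 average, 1 higher and 4 lower, where 7.16% of all genes were called, 2.23% higher and 4.93% lower. INSIG2, which like INSIG1 retains SCAP, was at 17.2 and 13.8 CPM in H1 SCR and 20.7 to 62.8 CPM with the hairpins, a log2 change of 1.20 (SE 0.28, adjusted p 0.0368). It was above its control in 9 of 9 knockdown libraries of both lines. SOAT1, which esterifies cholesterol for storage, was at 27.1 and 33.1 CPM in SCR and 18.3 to 24.2 CPM with the hairpins for -0.54 (SE 0.11, adjusted p 0.0191) on the log2 scale. ME1, a cytosolic source of NADPH, was at 6.2 and 8 CPM in SCR and 2.23 to 4.36 CPM with the hairpins for -0.98 (SE 0.24, adjusted p 0.0349) on the log2 scale. HACD3 and HACD2, dehydratases of fatty acid elongation, stood at -0.44 (SE 0.08, adjusted p 0.0137) and -0.41 (SE 0.11, adjusted p 0.044) on the log2 scale (edgeR). These 5 calls were not followed through the other settings, under which some calls of the 30 genes in the H1 average were lost. Of the 30 genes, 18 are overlapped by an annotated gene on the other strand, 8 by a gene on the same strand, and 5 have a named pseudogene, FDPS among them. Their estimated counts carry that uncertainty to different degrees. In mean CPM without TMM scaling, the FDPS pseudogenes were at most at 0.086 beside 140.56 for FDPS. FEN1, on the same strand as FADS2, was at 97 beside 310.1 for FADS2. FADS1 and FADS2 overlap each other on opposite strands. Whether counts were shared was not tested.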

How the data were processed

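Total RNA of 12 embryoid body libraries was sequenced from stranded libraries, per the labels' protocols. The authors deposited estimated counts (expected counts) per Ensembl identifier, whose library totals differ, of which 14.8% to 20.8% per library are not whole numbers; fastp and kallisto are named in the submitters' processing notes, without versions or roles. The build, annotation and strand setting are not given in the sources used here. Coordinates, transcript length and GC content (90.6% of tested genes) come from GENCODE release 29, and promoters from RefSeq GRCh38.p14.

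Here the counts were rounded, filtered by filterByExpr over the 7 groups and TMM-scaled, and tested over 24898 genes by the robust quasi-likelihood F-test of edgeR 4.0.16 under R 4.3.3 with limma 3.58.1. P-values were adjusted by the method of Benjamini and Hochberg. The fit over both lines had cell line as covariate; all other contrasts came from 1 model of the 7 group means over all libraries. A standard error is the log2 fold change over the square root of F. As alternatives, library sizes were scaled by upper quartile or median of ratios, the filter was changed in 2 ways, DESeq2 1.42.0 was run, designs were varied, single libraries were left out, and the GC content and length trend was removed with splines of 5 and 4 degrees of freedom. On simulated data, in which 200 of 23716 genes changed by a log2 of 2, the fit over both lines recovered 88% and the H1 average 84.5%. Of their calls, 4.86% and 8.15% were false. Single H1 hairpins and the MEL1 average recovered 70% to 78.5%, with 5.45% to 8.19% false. The share of false calls was thus above the nominal 5% in all but the fit over both lines. With 151 to 185 calls per comparison, whether any share differs from 5% was not tested. The called genes of the set in the H1 average were at -1.04 (ACAT2) to -0.42 (NSDHL) and 0.69 (STARD4) on the log2 scale. Recovery at a log2 of 2 therefore does not measure how often changes of that size are found. All simulated libraries were drawn around the same mean per gene, with the same change in every knockdown library. They held no difference between lines, none between hairpins and no trend on GC content. The shares recovered and false thus cannot be carried over to the real libraries, which differ in these ways.

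The members and lists were chosen with earlier results of these data known. All 30 members are named; METTL14 was named as the check of the labels, and other pathway genes where called over both lines or in the H1 average. TCP1 and VPS51 were added for their overlaps. Replicate numbers only name libraries, in accession order. No sample column of the table was left unmapped.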

Additional observations from a re-analysis of the deposited data

Results flagged for a closer look

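In the first H1 KD1 library, FDFT1 stood at 101.1 CPM and MSMO1 at 179.8 CPM, each set apart from the other 5 H1 knockdown libraries by Dixon's criterion (critical value 0.625 for 6 libraries). The other 5 held 14 to 43.7 CPM of FDFT1 and 70.8 to 110.1 CPM of MSMO1. All 30 genes were examined in this way and 2 stood apart. Chance alone sets about 1 in 20 groups apart where the 6 libraries are draws from the same population. Here they come from KD1, KD2 and KD3, with 2 libraries each, so that rate need not hold.

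The H1 hairpins differed from each other in 3 genes by a test of that difference (edgeR), with adjusted p of 0.0262 for MVD, 0.0403 for INSIG1 and 0.0493 for SCD. For all 3, both KD1 libraries were above the KD2 and KD3 libraries. For TM7SF2 the knockdown effect was called as unlike in H1 and MEL1, with an edgeR adjusted p of 0.0334, where 0.598% of all genes were called. That call rests on 1 MEL1 SCR library and held in 8 of 16 other settings. With the GC and length trend removed the difference was 0.74 on the log2 scale and was not called.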

How the results depend on the processing

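No called value changed direction under any alternative run. Among genes without a call, 12 of 30 over both lines and 4 of 30 in the H1 average (FASN, MVD, SREBF1 and SREBF2) changed sign in at least 1 setting, with an adjusted p of at least 0.241 and 0.577. The sterol median with KD1 changed sign, from -0.11 to 0.017 with the GC and length trend removed, and it ranged from -0.14 to 0.074 without 1 library (0.074 without the second KD1 library). Of 848 values under alternatives, 731 kept their side of the threshold, 106 lost it and 11 gained it. These values cover genes of the 30 called as fitted in a comparison, or with an unadjusted p under 0.05 (edgeR) over both lines. Among them are the 16 calls of level between lines, where all but CYP51A1, MSMO1 and PMVK held in 16 of 16 settings. The totals therefore do not measure the knockdown calls alone. Of 190 counts of called genes 61 moved by over 1.5 times. The alternatives for single MEL1 hairpins and for the medians of single H1 hairpins were added after the data were seen. Counts of the 30 genes follow, with the percent of all genes called in the same fit in parentheses. Over both lines, with 0 (0.213%), DESeq2 gave 1 (5%), group means 5 (10.8%), a fit of the H1 libraries 3 (0.794%), and leaving out 1 library 0 to 1 (0.044% to 1.12%). In the H1 average, with 5 (7.16%), no filter on low counts gave 8 (8.11%), the trend removed 8 (11.7%), and leaving out 1 library 1 to 5 (0.496% to 7.43%). For KD1, with 6 (11.1%), no filter gave 10 (10.4%) and leaving out 1 library 1 to 6 (0.832% to 11.2%). For KD2, with 2 (1.54%), no filter gave 11 (4.35%), DESeq2 7 (4.61%), the trend removed 6 (3.67%) and leaving out 1 library 0 to 2 (0.258% to 1.62%). For KD3, with 2 (2.98%), no filter gave 5 (5.7%), DESeq2 4 (6.73%) and leaving out 1 library 0 to 3 (0.433% to 3.56%). For the difference between hairpins, with 3 (3.54%), no filter gave 13 (8.43%), DESeq2 13 (8.93%) and leaving out 1 library 0 to 4 (0.622% to 4.59%). For the MEL1 average, with 2 (4.45%), no filter gave 7 (6.73%), the trend removed 0 (2.92%) and leaving out 1 library 2 throughout (2.05% to 5.31%). For MEL1 KD1, with 5 (8.39%), no filter gave 10 (9.46%), the trend removed 0 (4.8%) and leaving out 1 library 2 to 5 (1.71% to 9.6%). For MEL1 KD2, with 1 (3.88%), median-of-ratios and upper-quartile scaling gave 0 (3.72% and 3.76%), no filter 5 (5.95%) and leaving out 1 library 0 to 1 (1.95% to 4.54%). For the difference of the effect between lines, with 1 (0.598%), median-of-ratios scaling, upper-quartile scaling and the trend removed gave 0 (0.353%, 0.39% and 1.35%), no filter 5 (3.41%), DESeq2 2 (3.02%) and leaving out 1 library 0 to 1 (0.137% to 0.597%). The difference in level between lines stayed at 14 to 18 (44.9% to 48.6%) without 1 library. The causes were not tested. No paired analysis was possible because the labels carry no replicate numbers. Comparisons that need the MEL1 SCR library, or the MEL1 KD2 library (the MEL1 average, MEL1 KD2 and both differences between lines), could not be made without it; MEL1 KD1 had 5 calls without the KD2 library. The MEL1 SCR library has the lowest depth and limits every MEL1 value.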

Other observations

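Among the 30 genes, libraries of the same H1 hairpin differed most in FDFT1, by a log2 of 1.21 between the KD1 libraries and 1.17 between the KD3 libraries, and by 0.10 between the KD2 libraries and 0.12 between the SCR libraries. INSIG1 differed by 0.88, 0.61 and 0.81 between the KD1, KD2 and KD3 libraries and by 0.25 between the SCR libraries. SCD differed by 0.56, 0.51 and 0.67 with the hairpins and by 0.39 in SCR, and MSMO1 by 0.71, 0.17 and 0.32 with the hairpins and by under 0.01 in SCR. These genes were chosen after their values were seen.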
